A study of Mus musculus with 16 samples.

Results

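The genes described here are the mitochondrial carrier family and the uncoupling proteins. They were taken by symbol alone, as every gene named Slc25a followed by digits only together with Ucp1, Ucp2 and Ucp3. This gave 50 of the 55278 gene symbols in the tables, of which 45 passed the filter on low counts and were tested. The 5 that were not tested were at or near 0 in all 16 libraries. Slc25a41, Slc25a48 and Slc25a54 had 0 counts in each library, Slc25a21 had at most 5 and Ucp1 at most 4. A count of 0 allowed up to 0.152 to 0.178 CPM, depending on the library (CPM, read counts scaled to a common library size; the limit is 12 estimated counts, about 3 read pairs, and covers counting error only).

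The RNA came from hearts of male mice, C57BL/6J and between 8 and 12 weeks old, in 4 groups of 4 samples. The Ppara-Flox groups served as controls for the groups whose cardiomyocytes were PPARα-deficient. In each genotype 1 group received lipopolysaccharide (LPS, a bacterial endotoxin that sets off systemic inflammation) at 5 mg/kg into the peritoneum, the other received saline (PBS), and tissue was collected 12 h after the endotoxin. The labels do not name the Cre line, and none of the 4 groups is labelled as carrying Cre without the floxed gene, so loss of PPARα and the presence of Cre cannot be told apart. The labels do not say whether each library came from 1 mouse, so p-values measure the spread between these samples. The RNA is of heart tissue, so fewer cells of a type and less RNA per cell cannot be told apart in any value below.

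Mitochondrial carriers are related proteins of the inner mitochondrial membrane that each move one or a few small molecules between the cytosol and the matrix, among them ATP, phosphate, acylcarnitines, amino acids, Krebs cycle intermediates, nucleotides and cofactors. Uncoupling proteins belong to the same family. Ucp1 lets protons leak in brown fat, while Ucp2 and Ucp3 are found in other tissues, Ucp3 mainly in skeletal muscle, heart and brown fat. PPARα, encoded by Ppara, is a lipid-sensing transcription factor of the nuclear receptor class that raises fatty acid uptake and oxidation in the heart, and genes of fatty acid transport into mitochondria are among its known targets.

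Each library held between 65569134 and 75436023 estimated counts in all. Because multiples of 4 are over-represented among low values, the depth in reads was taken as a total divided by 4, which was 16392284 to 18859006. The heart muscle gene Myh6 stood at 17235 to 37639 CPM in all 16 libraries. Ppara averaged 50.2 ± 9.86 CPM (mean ± SD, n = 4) in the Ppara-Flox PBS group, against 14.6 ± 2.57 CPM in the PPARα-deficient PBS group (log2 fold change -1.79 ± 0.28, edgeR quasi-likelihood adjusted p = 0.00287). After LPS it averaged 11.3 ± 3.30 and 7.98 ± 3.38 CPM, a genotype difference that was not called (log2 fold change -0.50 ± 0.27, adjusted p = 0.651). Ppara itself fell with LPS in Ppara-Flox hearts (-2.15 ± 0.28, adjusted p = 1.25e-05). It also fell in PPARα-deficient hearts (-0.87 ± 0.27, adjusted p = 0.0188), with overlapping groups. The summed level of 7 cardiomyocyte markers ran from 60885 to 66356 CPM in Ppara-Flox PBS, 30909.8 to 36836 in Ppara-Flox LPS, 56343 to 62022 in PPARα-deficient PBS and 34802 to 40262 in PPARα-deficient LPS hearts. All 7 markers were lower with LPS in Ppara-Flox hearts and 5 in PPARα-deficient hearts. The sample numbers in the headers of the LPS libraries are all higher than those of the PBS libraries, so LPS and the order of numbering cannot be told apart. The PBS numbers form 2 series, 1 for replicates 1 and 2 and 1 for replicates 3 and 4 of both genotypes. Ppara-Flox PBS replicate 1 was the lowest library of its group for Slc25a20, Ucp3, Slc25a22, Slc25a34 and Slc25a42, and their results are given with and without it. It was the lowest for other members as well, among them Slc25a4 and Slc25a3. Without it their LPS log2 fold changes in Ppara-Flox hearts were -0.28 and -0.33, both still called.

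Fold changes are on the log2 scale with a standard error (SE), from 1 edgeR quasi-likelihood model of all 16 libraries. The SE was computed as the absolute log2 fold change divided by the square root of the test's F. The 95% intervals use this SE and a t distribution with 12 degrees of freedom. The p-values use the model's own degrees of freedom, so an interval and its p can differ slightly. A gene is called higher or lower at a Benjamini-Hochberg adjusted p under 0.05 over the 18713 genes tested. Levels are CPM, as mean ± SD over 4 libraries, and the values of single libraries follow the replicate numbers 1 to 4.

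In the comparison of genotypes, 4 carriers were lower in PPARα-deficient hearts and none was higher by this test. They were Slc25a20, the carnitine-acylcarnitine carrier that brings long-chain fatty acids into the matrix, Ucp3, the glutamate carrier Slc25a22, and Slc25a34, a carrier whose substrate is not settled. Under PBS, 3 of the 45 tested members were lower (Slc25a20, Ucp3 and Slc25a22) and 0 were higher, where 0.401% of all genes tested were called lower and 0.0321% higher. After LPS, 4 were lower (the same 3 genes and Slc25a34) and 0 higher, where 0.85% of all genes were called lower and 0.385% higher. The median log2 fold change of the 45 members was 0.00 under PBS and -0.09 after LPS, against 0.00 and 0.01 over all genes. The number of members with an unadjusted p under 0.05 was 5 under PBS and 12 after LPS. The share of all genes at that unadjusted level is not given here, so no excess among the members can be read from these counts. DESeq2 called 0 members higher under PBS and 1, Slc25a35, after LPS. The share of all genes that DESeq2 called is not given here.

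The start regions of these 4 genes are shown because they are the members lower in PPARα-deficient hearts. Each is the 250 bases before a transcription start in the RefSeq annotation of GRCm38.p6, written 5′ to 3′ along the gene, with capitals marking AGGTCA on either strand, the core motif of PPARα and many other nuclear receptors. The windows are chr9:108661886-108662135 on the plus strand for Slc25a20, chr7:100472741-100472990 on the plus strand for Ucp3, chr7:141437875-141438124 on the minus strand for Slc25a22 (the outermost of its 3 listed starts) and chr4:141623835-141624084 on the minus strand for Slc25a34.
Slc25a20: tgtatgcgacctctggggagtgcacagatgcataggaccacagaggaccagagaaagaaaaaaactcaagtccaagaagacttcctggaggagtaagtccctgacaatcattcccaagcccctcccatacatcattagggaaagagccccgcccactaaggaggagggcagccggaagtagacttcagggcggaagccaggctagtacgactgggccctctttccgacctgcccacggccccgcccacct
Ucp3: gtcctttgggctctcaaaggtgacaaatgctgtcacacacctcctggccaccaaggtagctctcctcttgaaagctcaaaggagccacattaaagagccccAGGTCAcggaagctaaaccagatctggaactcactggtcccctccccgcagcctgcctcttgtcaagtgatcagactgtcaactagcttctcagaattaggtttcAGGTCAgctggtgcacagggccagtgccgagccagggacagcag
Slc25a22: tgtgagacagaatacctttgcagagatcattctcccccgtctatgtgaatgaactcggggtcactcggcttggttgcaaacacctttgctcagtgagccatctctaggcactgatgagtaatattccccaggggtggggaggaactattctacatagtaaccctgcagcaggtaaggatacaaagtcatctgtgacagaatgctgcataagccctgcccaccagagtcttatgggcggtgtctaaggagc
Slc25a34: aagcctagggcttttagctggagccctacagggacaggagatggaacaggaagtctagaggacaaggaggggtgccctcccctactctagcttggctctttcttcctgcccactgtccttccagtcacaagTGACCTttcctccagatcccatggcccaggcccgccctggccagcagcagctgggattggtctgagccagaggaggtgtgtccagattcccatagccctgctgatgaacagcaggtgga

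The Ucp3 window held AGGTCA at 2 places, 149 to 144 and 44 to 39 bases before the start, both in the direction of the gene. The Slc25a34 window held it at 1 place, 119 to 114 bases before the start, on the opposite strand, where it reads TGACCT. The windows of Slc25a20 and Slc25a22 held none, which says only that these letters are not in these 250 bases. Of 32851 windows of this length listed by RefSeq, 14.0% held the core motif. By symbol, 39 of the members were matched to these windows, and the remaining members were not searched. The matched members had 49 windows, and 6 of the 49 held the core motif, a share near that of all windows. They belong to Slc25a34, Slc25a39, Slc25a45, Slc25a47, Ucp1 and Ucp3. The repeat AGGTCANAGGTCA, searched on both strands and containing the core motif, was in 11 windows (0.0335%) and in 0 of the members' windows. These matches describe letters in a sequence and not sites of binding.

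**Figure D1:**
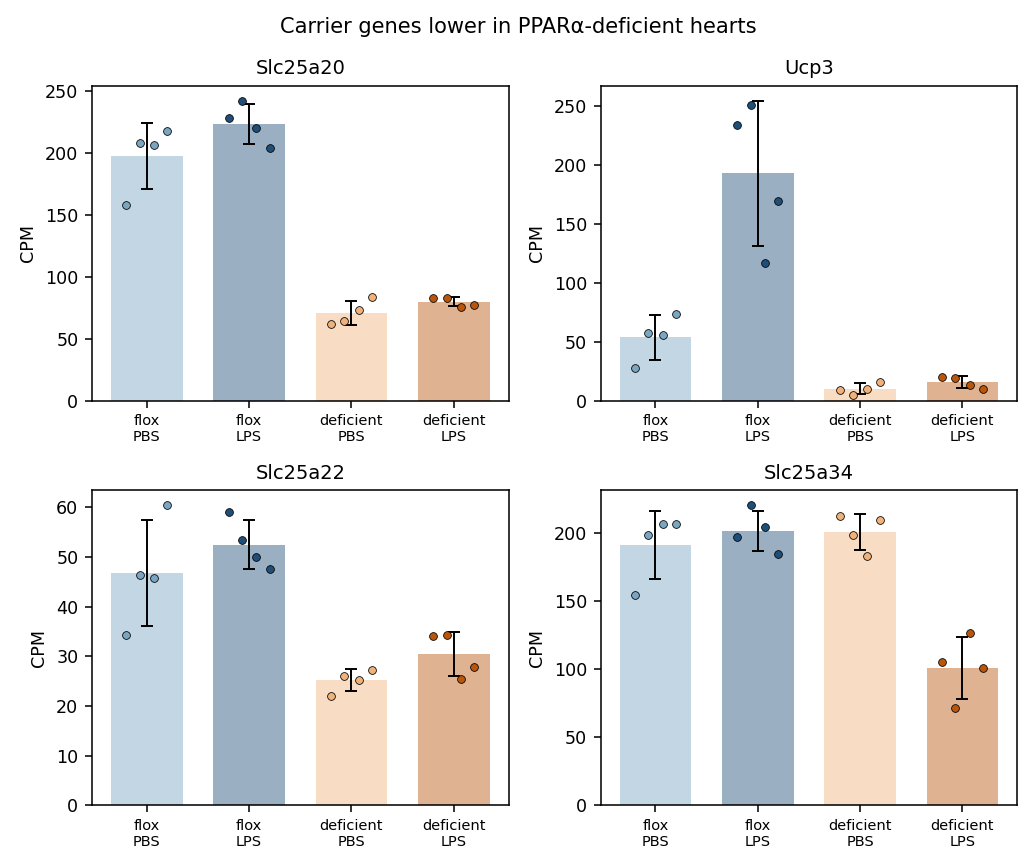
CPM of the 4 carrier genes called lower in PPARα-deficient hearts, by group. Bars are means, error bars SD over 4 libraries and points single libraries. Slc25a20, Ucp3 and Slc25a22 are lower in the deficient groups under PBS and after LPS, while Slc25a34 is lower in the deficient LPS group, at 71.3 to 126 CPM.

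With LPS, more carriers fell than rose. In Ppara-Flox hearts 11 of 45 members were higher (24.4%) and 18 lower (40%), where 20.2% of all genes were called higher and 19.1% lower. In PPARα-deficient hearts 8 were higher (17.8%) and 17 lower (37.8%), where 19.4% of all genes were called higher and 18.3% lower. The median log2 fold change over the 45 members was -0.24 in Ppara-Flox and -0.22 in PPARα-deficient hearts, against 0.01 over all genes in each. Of the called members 7 in Ppara-Flox and 8 in PPARα-deficient hearts changed by at least 2-fold. The matching share over all genes is not given here.

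The LPS comparisons in the genotypes share no library. All 8 members that rose in PPARα-deficient hearts (100%) also rose in Ppara-Flox hearts, where they made up 72.7% of those that rose. Of the members that fell, 15 did so in both genotypes, 83.3% of those in Ppara-Flox and 88.2% of those in PPARα-deficient hearts. None was called in opposite directions. The same shares over all genes are not given here, so whether such overlap is particular to the carriers cannot be read from them. Slc25a30, Slc25a37 and Ucp3 were called higher in Ppara-Flox hearts alone, Slc25a4, Slc25a35 and Slc25a45 lower there alone, and Slc25a34 and Slc25a39 lower in PPARα-deficient hearts alone. Whether these 8 responses differ between the genotypes is a separate test, given at the end. The 14 members called in neither genotype include Slc25a20 and Slc25a22, which differed by genotype.

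**Figure D2:**
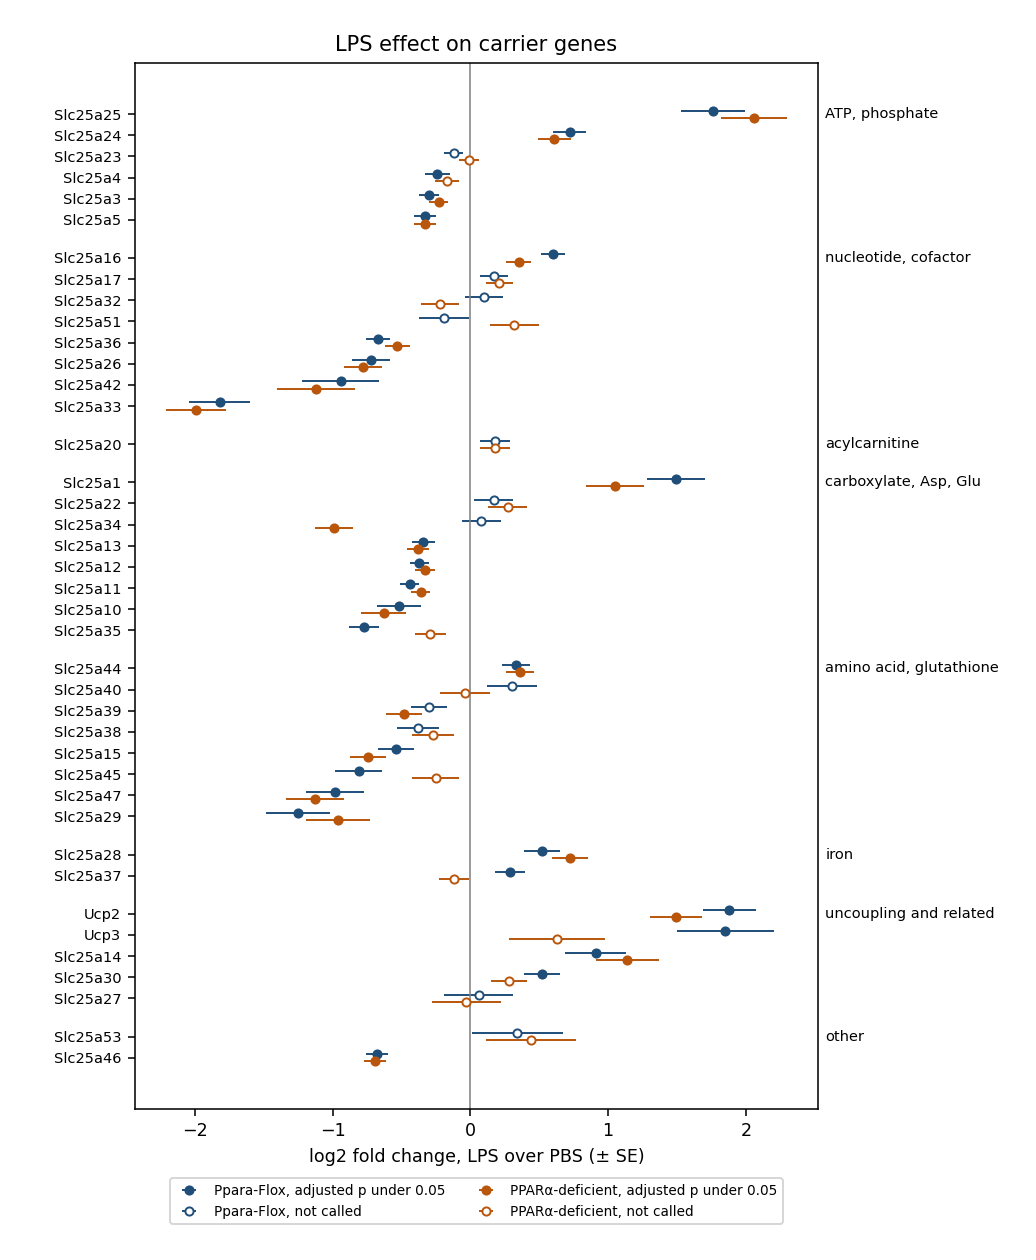
Log2 fold change of LPS over PBS for 40 tested members averaging at least 1 CPM, grouped by role. Points are estimates and bars SE. Filled points passed an adjusted p of 0.05. Slc25a25, Slc25a1, Ucp2 and, in Ppara-Flox hearts, Ucp3 lie at the right, and Slc25a33 at the left.

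Per kilobase of annotated exon, a few carriers made up most of the family. Divided by the kilobases of exon in GENCODE, Slc25a4, the heart's main ADP/ATP carrier, stood at 1755 CPM per kb in Ppara-Flox PBS hearts and took 64.9% ± 0.963 of the members' summed level per kb. The phosphate carrier Slc25a3 and the oxoglutarate-malate carrier Slc25a11 followed at 219 and 219.6 CPM per kb. Their shares on this scale, 8.11% ± 0.247 and 8.13% ± 0.198, do not differ beyond their spread. The divisor covers all annotated exons, 5550 bases for Slc25a3 and 2120 for Slc25a11, and may differ from the length of the transcripts present. In CPM alone Slc25a3 stood at 1215 ± 51.1 and Slc25a11 at 465 ± 31.3, so how they compare depends on the divisor. Slc25a5, a second ADP/ATP carrier, stood at 146 CPM per kb, a share of 5.42% ± 0.418. Further down, Slc25a34 stood at 71.6 and Slc25a20 at 40.7 CPM per kb in the same hearts.

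The summed level of the 50 members was 2702 ± 189 CPM per kb in Ppara-Flox PBS and 2334 ± 216 in Ppara-Flox LPS hearts. It was 2684 ± 158 in PPARα-deficient PBS and 2314 ± 126 in PPARα-deficient LPS hearts. The PBS libraries of both genotypes ran from 2471 to 2897 CPM per kb, and the LPS libraries from 2026 to 2511. The share of Slc25a4 was 63.6% ± 1.35 in Ppara-Flox LPS, 65.1% ± 1.46 in PPARα-deficient PBS and 67.2% ± 1.11 in PPARα-deficient LPS hearts. The order among genes further down changed between groups. Ucp3 was at 17.1, 61.5, 3.23 and 5.02 CPM per kb in Ppara-Flox PBS, Ppara-Flox LPS, PPARα-deficient PBS and PPARα-deficient LPS hearts. At the low end Slc25a2, Slc25a18, Slc25a31 and Slc25a43 averaged under 1 CPM in each group, and none of them was called in any comparison.

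**Figure D3:**
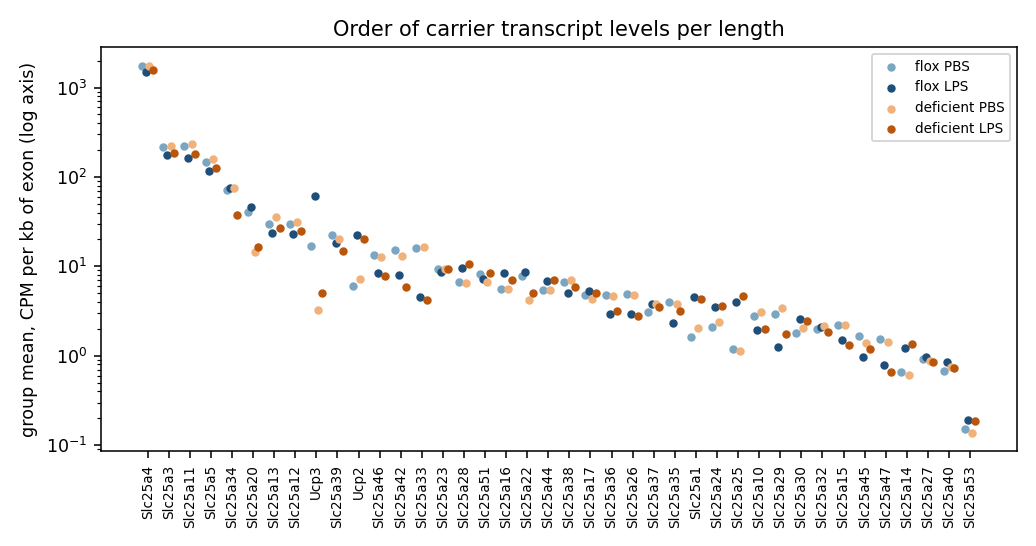
Group means in CPM per kb of exon (log axis) for 40 tested members averaging at least 1 CPM, ordered by their mean over all libraries. Slc25a4 stands above all others, followed by Slc25a3, Slc25a11 and Slc25a5. Ucp3, Slc25a20 and Slc25a33 show wide gaps between groups.

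Among the carriers that exchange ATP, ADP and phosphate, the abundant members fell slightly with LPS and the calcium-regulated ATP-Mg/phosphate carriers Slc25a24 and Slc25a25 rose. Of the 7 tested, 2 were higher and 3 lower in Ppara-Flox hearts, and 2 higher and 2 lower in PPARα-deficient hearts. None was called between genotypes.

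Slc25a25 (ENSMUSG00000026819, chr2:32414487-32451445) stood at 11.4, 10.6, 6.12 and 9.45 CPM in Ppara-Flox PBS and 31.9, 23.4, 40.1 and 31.4 in Ppara-Flox LPS libraries. PPARα-deficient hearts gave 7.13, 13.7, 6.72 and 7.83 CPM under PBS and 29.7, 41.4, 36.9 and 39.2 after LPS. Every LPS library lay above every PBS library. The log2 fold change was 1.76 ± 0.23 (adjusted p = 1.70e-05) in Ppara-Flox and 2.06 ± 0.24 (adjusted p = 3.85e-06) in PPARα-deficient hearts. Naif1 overlaps 4.8% of its exon bases on the opposite strand, and whether the counting used strand is not given in the sources used here, so reads in such overlaps cannot be assigned. Slc25a24 rose less, from 7.26 ± 0.739 to 11.9 ± 1.51 CPM in Ppara-Flox (log2 fold change 0.72 ± 0.12) and 8.16 ± 0.945 to 12.5 ± 0.738 CPM in deficient hearts (0.61 ± 0.12). The third carrier of this kind, Slc25a23, was not called (log2 fold change -0.12 ± 0.07 and -0.01 ± 0.07).

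Slc25a4 (ENSMUSG00000031633, chr8:46206797-46211284) was at 3748, 4471, 4348 and 3950.4 CPM in Ppara-Flox PBS and 3496, 3745, 3774 and 2967 CPM in Ppara-Flox LPS libraries. The ranges overlap by little, at 3748 CPM for the lowest PBS and 3774 CPM for the highest LPS library. The log2 fold change was -0.24 ± 0.09 (adjusted p = 0.0389). The call was lost without any of 4 single libraries, Ppara-Flox PBS replicates 2 and 3 and Ppara-Flox LPS replicates 1 and 4, with log2 fold changes from -0.24 to -0.17. In PPARα-deficient hearts it was at 4368, 4419, 3914 and 3753 CPM under PBS and 3938, 3772, 3374 and 3569 after LPS, which was not called (log2 fold change -0.17 ± 0.09, 95% interval -0.36 to 0.02).

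The phosphate carrier Slc25a3 (ENSMUSG00000061904, chr10:91116574-91124059) fell from 1154, 1258, 1256 and 1189.8 CPM to 977, 1055, 1022 and 885 CPM in Ppara-Flox hearts. The change in PPARα-deficient hearts was from 1285, 1274, 1183 and 1136 to 1088, 1049.8, 1056 and 953 CPM. Within each genotype all LPS libraries lay below all PBS libraries. The changes were -0.30 ± 0.07 (adjusted p = 0.00254) and -0.23 ± 0.07 (adjusted p = 0.0143), the second not called without PPARα-deficient LPS replicate 4 (-0.20, adjusted p = 0.0535). Slc25a5 fell by a similar amount, from 241 ± 19.5 to 192 ± 15.2 CPM and from 259 ± 10.9 to 205 ± 16.4 CPM (log2 fold change -0.33 ± 0.08 and -0.33 ± 0.08). Slc25a5 is known to have processed pseudogenes, and how reads shared with them were counted is not given in the sources used here. The summed cardiomyocyte markers fell in the same libraries, as given above, and their part in these results was not tested.

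Carriers of nucleotides and cofactors mostly fell with LPS in both genotypes, and of the called members Slc25a33 had the largest fall in each. Of 9 tested, 1 was higher and 5 lower in each genotype, with medians of -0.67 in Ppara-Flox and -0.53 in PPARα-deficient hearts. None was called between genotypes.

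Slc25a33 (ENSMUSG00000028982, chr4:149744036-149774277), a pyrimidine nucleotide carrier, stood at 35, 30, 26.9 and 28.2 CPM in Ppara-Flox PBS and 9.84, 10.3, 6.23 and 7.70 CPM in Ppara-Flox LPS libraries. PPARα-deficient hearts gave 45.6, 31.5, 29 and 18.8 CPM under PBS and 7.85, 7.33, 9.09 and 7.17 CPM after LPS. The highest LPS library, at 10.3 CPM, was below the lowest PBS library, at 18.8 CPM. It fell by 3.53-fold (log2 fold change -1.82 ± 0.22, adjusted p = 4.91e-06) and 3.97-fold (-1.99 ± 0.22, adjusted p = 2.18e-06). Gm13068 on the opposite strand shares 14.9% of its exon bases. Its relative Slc25a36, also a pyrimidine nucleotide carrier, fell from 45.4 ± 2.84 to 28.5 ± 2.66 CPM and from 44.2 ± 3.77 to 30.6 ± 3.17 CPM (log2 fold change -0.67 ± 0.09 and -0.53 ± 0.09).

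The coenzyme A carrier Slc25a42 (ENSMUSG00000002346, chr8:70184340-70212305) was at 33.6, 99.1, 110.4 and 123 CPM in Ppara-Flox PBS and 44.8, 45, 59.2 and 42.3 CPM in Ppara-Flox LPS libraries. Ppara-Flox PBS replicate 1 stood far below the other PBS libraries, and below the LPS libraries as well. The log2 fold change was -0.94 ± 0.28 (adjusted p = 0.0139), -1.55 to -0.32 as a 95% interval. It was -1.21 without that library, -0.76 (adjusted p = 0.0533) without Ppara-Flox PBS replicate 4 and -0.57 (adjusted p = 0.116) with the number series of the PBS libraries as a term. That term sets the PBS level at the series of replicates 1 and 2, which holds the low replicate 1. The value depends on this reference, and the other series was not tried as reference. In PPARα-deficient hearts it fell from 68, 62.7, 80.3 and 98.2 CPM to 34.9, 26.9, 38.7 and 41.3 CPM, without overlap (log2 fold change -1.12 ± 0.28, adjusted p = 0.0046).

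Slc25a26, which brings S-adenosylmethionine into mitochondria, fell from 23.5 ± 3.57 to 14.3 ± 2.34 CPM in Ppara-Flox and 22.9 ± 3.10 to 13.3 ± 1.78 CPM in deficient hearts (log2 fold change -0.72 ± 0.14 and -0.78 ± 0.14). Slc25a16, also linked to coenzyme A, was the 1 member of the group that rose, from 26.7 ± 1.45 to 40.6 ± 3.20 CPM and from 26.8 ± 2.87 to 34.1 ± 2.08 CPM (0.60 ± 0.09 and 0.35 ± 0.09). The peroxisomal cofactor carrier Slc25a17, the folate carrier Slc25a32 and the NAD carrier Slc25a51 were not called in either genotype, with log2 fold changes between -0.22 and 0.32.

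Slc25a20 (ENSMUSG00000032602, chr9:108662088-108684641) is the single acylcarnitine carrier of the family and was the member with the smallest adjusted p by genotype. It stood at 158, 208, 206 and 218 CPM in Ppara-Flox PBS and 62.2, 64.1, 73 and 83.6 CPM in PPARα-deficient PBS libraries. After LPS it was at 228, 242, 219.7 and 204 CPM in Ppara-Flox and 83, 82.9, 75.9 and 77.6 CPM in PPARα-deficient libraries. Every deficient library lay below every Ppara-Flox library, at no more than 83.6 CPM against no less than 158 CPM. The difference was 2.79-fold under PBS (log2 fold change -1.48 ± 0.11, adjusted p = 8.93e-07) and 2.80-fold after LPS (-1.48 ± 0.11, adjusted p = 6.48e-07). Without Ppara-Flox PBS replicate 1 the PBS value was -1.57. Slc25a20 was called by genotype in every alternative tried, at -1.57 to -1.42 under PBS and -1.52 to -1.44 after LPS when single libraries were left out.

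Slc25a20 was not called with LPS. The log2 fold change was 0.18 ± 0.11 in Ppara-Flox hearts (95% interval -0.05 to 0.41) and 0.18 ± 0.11 in PPARα-deficient hearts (-0.06 to 0.41). The genotype difference after LPS minus that under PBS was -0.00 ± 0.15, with an interval of -0.33 to 0.33. The gene has no exonic overlap with another gene in GENCODE.

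The other genes of the carnitine route were read from a list of 7: Slc22a5, Acsl1, Cpt1a, Cpt1b, Cpt1c, Cpt2 and Crat. Between genotypes 4 of the 7 were lower and 0 higher, under PBS and after LPS alike, with medians of -0.61 and -0.80. Over all genes tested, 0.401% were called lower under PBS and 0.85% after LPS. Cpt2, which remakes acyl-CoA in the matrix from what Slc25a20 delivers, fell from 182 ± 19 to 76.5 ± 6.28 CPM under PBS (log2 fold change -1.25 ± 0.10, adjusted p = 1.74e-06). Cpt1b, the muscle enzyme that makes acylcarnitine at the outer membrane, was at 668 ± 65.1 and 402 ± 18.7 CPM (-0.73 ± 0.08, adjusted p = 6.87e-05). Acsl1, which makes acyl-CoA from fatty acids, was at 929.5 ± 92.8 and 419 ± 98.4 CPM (-1.15 ± 0.15, adjusted p = 0.000476). The plasma membrane carnitine transporter Slc22a5 was the fourth, at -0.61 under PBS (adjusted p = 0.0491) and -0.87 after LPS (adjusted p = 0.0013). With LPS, 1 of the 7 rose and 3 fell in Ppara-Flox hearts, and 2 rose and 5 fell in PPARα-deficient hearts. Over all genes 20.2% were called higher and 19.1% lower in Ppara-Flox hearts, and 19.4% and 18.3% in PPARα-deficient hearts. Cpt2 rose in both (log2 fold change 0.26 ± 0.10 and 0.45 ± 0.10) and Cpt1b fell in both (-0.34 ± 0.08 and -0.41 ± 0.08).

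**Figure D4:**
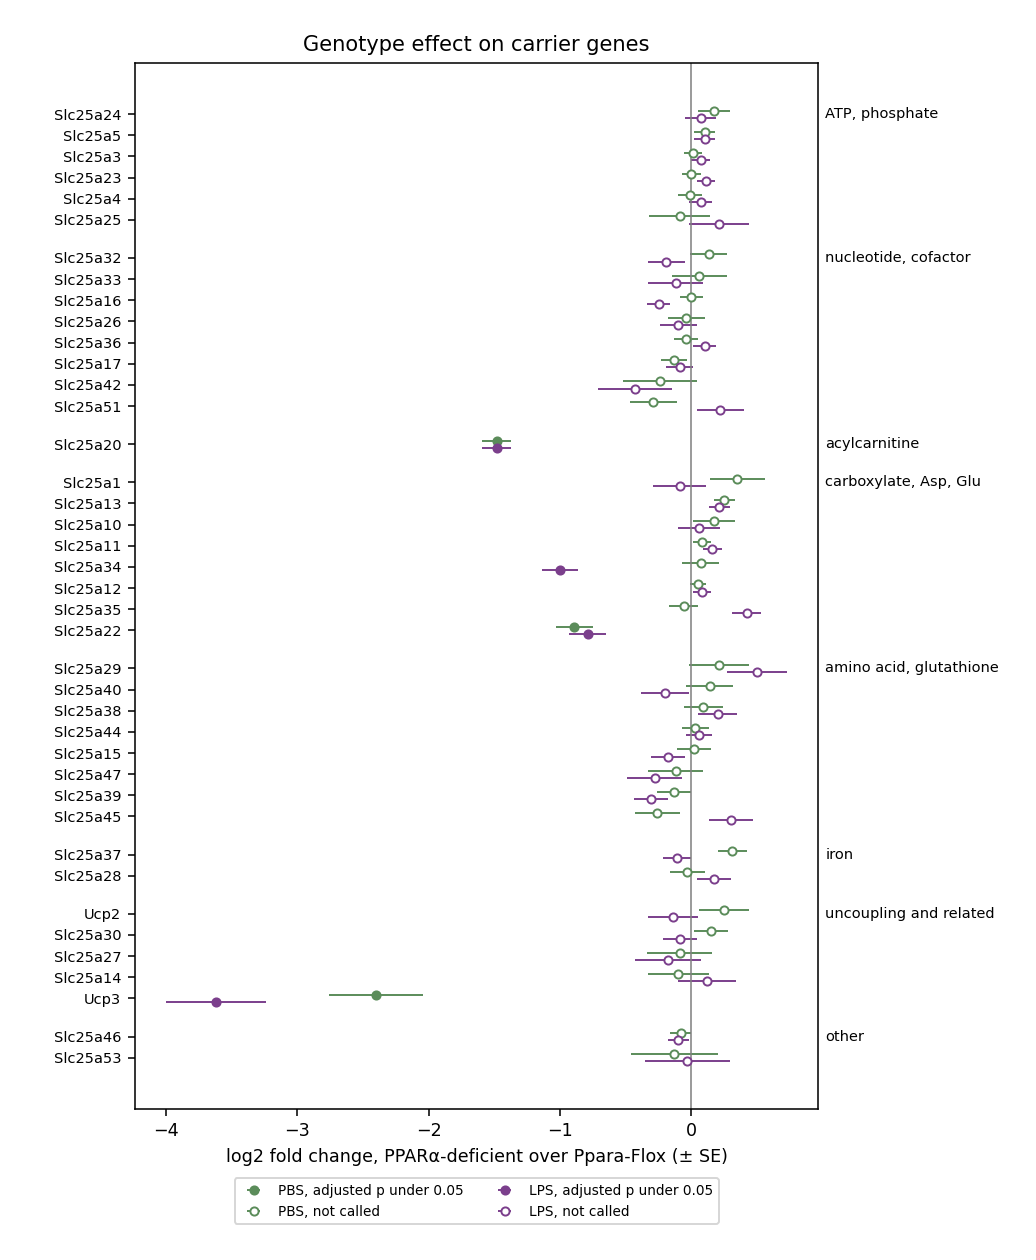
Log2 fold change of PPARα-deficient over Ppara-Flox hearts under PBS and after LPS for 40 tested members averaging at least 1 CPM, grouped by role. Points are estimates, bars SE and filled points passed an adjusted p of 0.05. Slc25a20, Ucp3 and Slc25a22 are filled in both conditions and Slc25a34 after LPS.

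Carriers of carboxylates, aspartate and glutamate, with the related Slc25a34 and Slc25a35 of unsettled substrate, held Slc25a22 and Slc25a34, both lower by genotype. Of 9 tested members, 1 was higher and 5 were lower with LPS in each genotype. By genotype 1 was lower under PBS and 2 after LPS.

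Slc25a22 (ENSMUSG00000019082, chr7:141429744-141437892), a carrier of glutamate with protons, stood at 34.3, 46.4, 45.8 and 60.4 CPM in Ppara-Flox PBS and 22.1, 26, 25.2 and 27.3 CPM in PPARα-deficient PBS libraries. After LPS the values were 59.1, 53.4, 50.1 and 47.5 CPM and 34.1, 34.2, 25.5 and 27.9 CPM. The genotypes overlapped neither under PBS nor after LPS, though Ppara-Flox PBS replicate 1, at 34.3 CPM, was close to the highest deficient LPS library, at 34.2 CPM. The log2 fold change was -0.89 ± 0.14 under PBS (adjusted p = 0.00461) and -0.79 ± 0.14 after LPS (adjusted p = 0.00779). Without Ppara-Flox PBS replicate 1 the PBS value was -1.02 (adjusted p = 0.000574). LPS gave 0.17 ± 0.14 in Ppara-Flox and 0.27 ± 0.14 in PPARα-deficient hearts, neither called. Slc25a18, a second glutamate carrier, averaged at most 0.631 CPM in any group.

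Slc25a34 (ENSMUSG00000040740, chr4:141618824-141623821) was at 154, 198, 206 and 206 CPM in Ppara-Flox PBS, 197, 219.9, 204 and 184 in Ppara-Flox LPS and 212, 198, 183 and 209 in PPARα-deficient PBS libraries. In PPARα-deficient LPS libraries it was at 105, 71.3, 126 and 100.5 CPM. Those 4 libraries lay below all 12 others, of which the lowest was 154 CPM. The log2 fold change with LPS was -0.99 ± 0.14 in PPARα-deficient hearts (adjusted p = 2.46e-05) and 0.08 ± 0.14 in Ppara-Flox hearts (95% interval -0.22 to 0.37). Between genotypes it was 0.07 ± 0.14 under PBS (-0.23 to 0.36) and -1.0 ± 0.14 after LPS (adjusted p = 0.00054). Without Ppara-Flox PBS replicate 1 the LPS value in PPARα-deficient hearts was -0.99 and the genotype value after LPS -1.0 (adjusted p = 0.000371). Slc25a34 was called in both comparisons whichever library was left out. Of the 7 cardiomyocyte markers, 5 fell with LPS in PPARα-deficient hearts, where Slc25a34 fell. All 7 fell in Ppara-Flox hearts, where Slc25a34 was not called. The part of cardiomyocyte content in the Slc25a34 result was not tested. In the same comparison of genotypes after LPS, 0 of the 7 were lower and 1, Tnnt2, was higher. The related carrier Slc25a35 fell in Ppara-Flox hearts, from 15.3, 14.7, 14.7 and 14 CPM to 10, 8.63, 8.88 and 6.84 CPM (log2 fold change -0.77 ± 0.11, adjusted p = 4.34e-05). In PPARα-deficient hearts it stood at 13.7, 15.6, 12.6 and 14.5 CPM under PBS and 11.6, 12, 10.4 and 12.1 CPM after LPS (-0.29 ± 0.11, adjusted p = 0.0537). Rangrf overlaps 31.3% of the exon bases of Slc25a35 on the opposite strand, so the value of Slc25a35 is uncertain.

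The citrate carrier Slc25a1 (ENSMUSG00000003528, chr16:17925223-17928219), which exports citrate for lipid synthesis, was the 1 member of the group that rose with LPS. It stood at 3.11, 4.96, 3.50 and 2.49 CPM in Ppara-Flox PBS and 8.99, 12.3, 8.54 and 9.72 CPM in Ppara-Flox LPS libraries. PPARα-deficient libraries gave 5.02, 5.04, 3.55 and 4.29 CPM and 11.6, 10.1, 8.01 and 7.39 CPM. All LPS libraries exceeded all PBS libraries. Slc25a1 changed by 1.49 ± 0.21 (adjusted p = 2.86e-05) and 1.05 ± 0.21 (adjusted p = 0.000727).

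The carriers of the malate-aspartate shuttle, which moves reducing equivalents from the cytosol into mitochondria, fell by small amounts in both genotypes. Slc25a11 fell from 465 ± 31.3 to 344 ± 30.3 CPM and from 493 ± 13 to 384 ± 20.4 CPM (log2 fold change -0.44 ± 0.07 and -0.36 ± 0.07). The aspartate-glutamate carriers Slc25a12 (-0.37 ± 0.07 and -0.33 ± 0.07) and Slc25a13 (-0.34 ± 0.08 and -0.38 ± 0.08) fell as well. The dicarboxylate carrier Slc25a10 changed by -0.52 and -0.63 on the log2 scale, with overlapping Ppara-Flox groups. Genes on the opposite strand share 8.9% of the exon bases of Slc25a11 (Rnf167) and 6.6% of those of Slc25a10 (Gm11788). Of the 4 enzymes of the shuttle (Got1, Got2, Mdh1 and Mdh2) all 4 fell in Ppara-Flox hearts and 1, Mdh1, in PPARα-deficient hearts. Over all genes 19.1% and 18.3% were called lower in these comparisons. Mdh1 changed by -0.40 ± 0.11 (adjusted p = 0.00964) and -0.44 ± 0.11 (adjusted p = 0.00516).

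Among 9 tested carriers of amino acids and glutathione, 1 was higher and 4 were lower with LPS in each genotype, and none was called between genotypes. Slc25a29 (ENSMUSG00000021265, chr12:108825873-108835883), a carrier of basic amino acids, fell from 8.97, 6.34, 7.53 and 7.91 CPM to 4.19, 3.76, 2.08 and 2.94 CPM in Ppara-Flox hearts. The fall in PPARα-deficient hearts was from 8.34, 6.66, 7.98 and 12.5 CPM to 3.86, 5.37, 5.41 and 3.62 CPM. The LPS libraries lay below the PBS libraries throughout. On the log2 scale the changes were -1.25 ± 0.23 (adjusted p = 0.000433) and -0.96 ± 0.23 (adjusted p = 0.00348).

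Slc25a47, the next gene on chromosome 12 on the other strand, fell alongside, from 4.65 ± 0.554 to 2.37 ± 0.568 CPM and from 4.27 ± 0.966 to 1.95 ± 0.397 CPM (log2 fold change -0.98 ± 0.21 and -1.13 ± 0.21). The ornithine carrier Slc25a15 fell from 12.3 ± 1.58 to 8.45 ± 1.14 CPM and from 12.5 ± 1.90 to 7.47 ± 0.187 CPM (-0.54 ± 0.13 and -0.74 ± 0.13). Slc25a44, which carries branched-chain amino acids, rose from 19.4 ± 1.48 to 24.3 ± 2.65 CPM and from 19.7 ± 1.85 to 25.4 ± 2.25 CPM (0.33 ± 0.10 and 0.36 ± 0.10). Its call in Ppara-Flox hearts was lost without any of 3 single libraries (Ppara-Flox PBS replicate 3 and Ppara-Flox LPS replicates 1 and 4), at 0.27 to 0.29. Slc25a39, which carries glutathione, was called lower in PPARα-deficient hearts (-0.48 ± 0.13, adjusted p = 0.00747) and stood at -0.30 ± 0.13 in Ppara-Flox hearts (adjusted p = 0.0726). Slc25a45 was called lower in Ppara-Flox hearts (-0.81 ± 0.17) and not in PPARα-deficient hearts (-0.25 ± 0.17). The glutathione carrier Slc25a40 and the glycine carrier Slc25a38, which serves heme synthesis, were not called.

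The iron importers of mitochondria are Slc25a28 and Slc25a37. Slc25a28 (ENSMUSG00000040414, chr19:43663801-43674881) rose from 21.8, 26.8, 27.3 and 23.4 CPM to 37.8, 42.6, 30.1 and 31.8 CPM in Ppara-Flox hearts. In deficient hearts it rose from 25.9, 24.3, 23.5 and 23.5 CPM to 51, 38.8, 33.8 and 36.1 CPM. The LPS libraries lay above the PBS libraries in each genotype. The log2 fold changes were 0.52 ± 0.13 (adjusted p = 0.00482) and 0.72 ± 0.13 (adjusted p = 0.000392). Slc25a37, the form that red cell precursors depend on, was called higher in Ppara-Flox hearts (0.29 ± 0.11, adjusted p = 0.0376) and stood at -0.12 ± 0.11 in PPARα-deficient hearts. The summed erythroid markers ran from 175 to 657 CPM in Ppara-Flox PBS and 99.9 to 429 CPM in Ppara-Flox LPS hearts, overlapping ranges with 0 of 6 tested markers called. In the deficient groups they ran from 125 to 1329 CPM under PBS and 34.1 to 307 CPM after LPS, with 2 markers called lower, Alas2 (-1.96, adjusted p = 0.0478) and Hba-a1 (-1.93, adjusted p = 0.0495). Gm31748 shares 6.3% of the exon bases of Slc25a37 on the opposite strand. The part of red cells in the Slc25a37 result was not tested.

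Of the uncoupling proteins and their relatives, Ucp2 rose with LPS in both genotypes, and Ucp3 was much lower in PPARα-deficient hearts. Of 5 tested, 4 rose in Ppara-Flox hearts and 2 in PPARα-deficient hearts, and none fell. By genotype 1, Ucp3, was lower under PBS and after LPS.

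Ucp3 (ENSMUSG00000032942, chr7:100472990-100486432) stood at 27.8, 57.2, 56.1 and 73.3 CPM in Ppara-Flox PBS and 9.33, 5.02, 10.1 and 16.1 CPM in PPARα-deficient PBS libraries. After LPS it stood at 234, 251, 117 and 169 CPM in Ppara-Flox and 20.2, 19.2, 13.6 and 9.91 CPM in PPARα-deficient libraries. The highest deficient library, at 20.2 CPM, was below the lowest Ppara-Flox library, at 27.8 CPM. Ucp3 was 5.29-fold lower in PPARα-deficient hearts under PBS (log2 fold change -2.40 ± 0.36, adjusted p = 0.00215) and 12.3-fold lower after LPS (-3.62 ± 0.38, adjusted p = 2.82e-05). The PBS value was -2.62 (adjusted p = 0.000709) without Ppara-Flox PBS replicate 1, and -2.72 to -2.18 over all single libraries left out.

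With LPS, Ucp3 rose 3.60-fold in Ppara-Flox hearts (log2 fold change 1.85 ± 0.35, adjusted p = 0.000457), where each LPS library exceeded each PBS library, and by 1.63 on the log2 scale (adjusted p = 0.00168) without Ppara-Flox PBS replicate 1. In PPARα-deficient hearts the change was 0.63 ± 0.35 (95% interval -0.12 to 1.39, adjusted p = 0.166), with overlapping groups. It was called there without PPARα-deficient PBS replicate 4 (0.95, adjusted p = 0.0465) and with the PBS number series as a term (1.06, adjusted p = 0.0267). The second value is taken against the series of PBS replicates 1 and 2 and depends on that reference. The other series was not tried as reference. Among 8 adipocyte markers, the defining genes Adipoq, Plin1 and Lep were at or near 0 in every library, and 6 of the 8 were below 1 CPM everywhere. The summed adipocyte markers ran from 19.3 to 26.1 CPM in Ppara-Flox PBS, 22.7 to 39.1 in Ppara-Flox LPS, 15.2 to 19.2 in PPARα-deficient PBS and 16.1 to 22.0 in PPARα-deficient LPS hearts. Most of that sum was Cidea, a lipid droplet gene of brown fat, at 14.5 to 35.9 CPM over all libraries. Of 4 adipocyte markers tested, 2 were called higher with LPS in Ppara-Flox hearts, Cidea (log2 fold change 0.50, adjusted p = 0.0146) and Elovl3 (adjusted p = 0.0258), which stood at 0 to 0.114 CPM under PBS and 0.313 to 0.99 CPM after LPS. Cidea was lower in PPARα-deficient hearts after LPS (log2 fold change -0.81, adjusted p = 0.0101). The part of fat cells in the Ucp3 result was not tested.

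Ucp2 (ENSMUSG00000033685, chr7:100493337-100502020), the neighbour of Ucp3 on chromosome 7, stood at 40.4, 53.2, 35.1 and 40.1 CPM in Ppara-Flox PBS and 164, 219.9, 112 and 124 CPM in Ppara-Flox LPS libraries. PPARα-deficient libraries gave 55.2, 51.3, 42.2 and 51.7 CPM under PBS and 165, 155, 125 and 118 CPM after LPS. All LPS libraries lay above all PBS libraries, whatever the genotype. The log2 fold changes were 1.88 ± 0.19 (adjusted p = 1.03e-06) and 1.49 ± 0.19 (adjusted p = 1.09e-05). By genotype Ucp2 was not called, at 0.25 ± 0.19 under PBS and -0.14 ± 0.19 after LPS (95% intervals -0.16 to 0.65 and -0.54 to 0.27). Ucp2 is known in immune cells as well. The summed level of 8 macrophage markers was 262 to 313 CPM in Ppara-Flox PBS and 137 to 181 CPM in Ppara-Flox LPS hearts. It was 293 to 346 and 161 to 224 CPM in PPARα-deficient hearts. The 8 did not move together: in each genotype 4 were called lower with LPS and 1, Cd68, higher (log2 fold change 0.54 and 0.71). The summed level of 8 neutrophil markers was 2.25 to 3.51 CPM under PBS and 24.0 to 53.6 CPM after LPS in Ppara-Flox hearts, and 1.26 to 8.96 and 30.3 to 34.3 CPM in PPARα-deficient hearts. The part of either cell type in the rise of Ucp2 was not tested.

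Per kilobase of exon, the ratio of Ucp3 to Ucp2 was 2.89 ± 1.15 in Ppara-Flox PBS and 2.77 ± 0.402 in Ppara-Flox LPS hearts. In PPARα-deficient hearts it was 0.456 ± 0.205 under PBS and 0.245 ± 0.0408 after LPS. On this scale Ucp3 stood above Ucp2 in each Ppara-Flox library, at a ratio of at least 1.53. It stood below Ucp2 in each PPARα-deficient library, at a ratio of at most 0.695. The divisor covers all annotated exons, 6989 bases for Ucp2 and 3135 for Ucp3, and may differ from the length of the transcripts present. In CPM alone, Ppara-Flox PBS replicate 1 had less Ucp3 (27.8) than Ucp2 (40.4), so a ratio above 1 depends on the divisor there. Dnajb13 overlaps 4.4% of the exon bases of Ucp2 on the opposite strand.

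**Figure D5:**
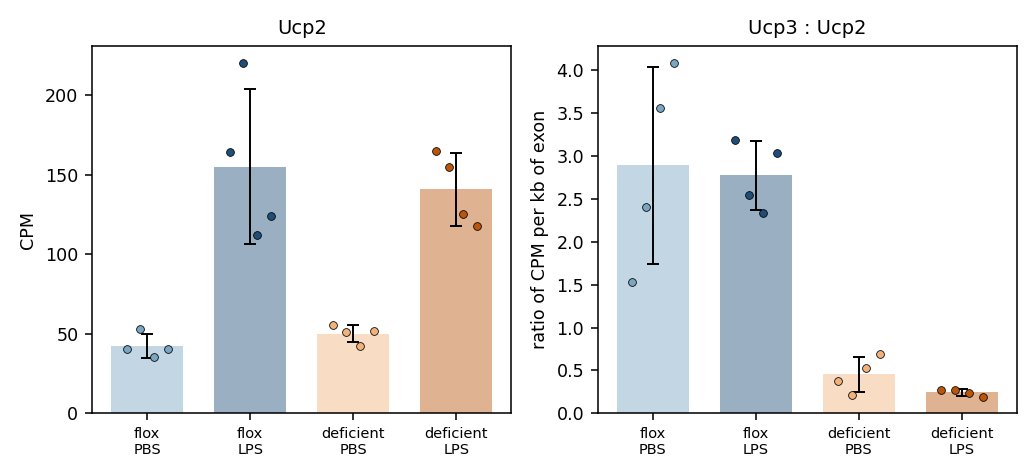
Left, CPM of Ucp2 by group. Right, ratio of Ucp3 to Ucp2 in CPM per kb of exon. Bars are means, error bars SD over 4 libraries and points single libraries. Ucp2 is higher in both LPS groups, and the ratio is above 1 in the Ppara-Flox libraries and below 1 in the PPARα-deficient libraries.

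The uncoupling protein relatives Slc25a14, Slc25a27 and Slc25a30 are expressed at low levels in the heart. Slc25a14 rose with LPS from 1.55 ± 0.23 to 2.91 ± 0.562 CPM and from 1.44 ± 0.163 to 3.17 ± 1.00 CPM (log2 fold change 0.91 ± 0.22 and 1.14 ± 0.23). Slc25a30 was called higher in Ppara-Flox hearts, from 8.31 ± 0.438 to 11.9 ± 1.06 CPM (0.52 ± 0.13, adjusted p = 0.0055), and stood at 0.28 ± 0.13 in PPARα-deficient hearts (adjusted p = 0.113). Slc25a27 was not called, with 95% intervals of -0.49 to 0.61 and -0.58 to 0.53. Ucp1 had 4 estimated counts in PPARα-deficient LPS replicate 1 (0.0528 CPM) and 0 in the other 15 libraries.

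Among the remaining members, Slc25a46, a family member of the outer membrane linked to mitochondrial shape, fell from 75.3, 66.5, 73.1 and 76.5 CPM to 45.9, 42.1, 46.5 and 47.7 CPM in Ppara-Flox hearts. PPARα-deficient libraries went from 60.3, 68.8, 69.6 and 76.2 CPM to 42.9, 41.2, 43.5 and 42.6 CPM. In each genotype the LPS libraries lay below the PBS libraries. B930094E09Rik shares 7.1% of its exon bases on the opposite strand. The log2 fold changes were -0.68 ± 0.08 (adjusted p = 3.63e-06) and -0.69 ± 0.08 (adjusted p = 3.12e-06). Slc25a53 and Slc25a43, with no settled substrate, were not called in any comparison.

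Whether LPS acted differently in the genotypes was tested for each gene as an interaction. edgeR called 0 of the 45 members, as it called 0% of all 18713 genes. An unadjusted p under 0.05 was reached by 5 members, a count given without the share over all genes. They were Slc25a34 (-1.07 ± 0.19, adjusted p = 0.128), Slc25a35 (0.48 ± 0.16, adjusted p = 0.712), Slc25a37 (-0.41 ± 0.15, adjusted p = 0.791), Ucp3 (-1.21 ± 0.48, adjusted p = 0.815) and Slc25a45 (0.56 ± 0.24, adjusted p = 0.832). Without Ppara-Flox PBS replicate 1 the value of Slc25a34 was -0.98 (adjusted p = 0.231). DESeq2 called 1 member, Slc25a34 (-1.06, adjusted p = 0.000655). Its share of calls over all genes is not given here, so this count cannot be set against it. Thus edgeR did not show the 8 members called with LPS in a single genotype to respond differently between genotypes.

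Other routes across the mitochondrial membranes were read from lists of related genes. With LPS, 20.2% of all genes were called higher and 19.1% lower in Ppara-Flox hearts, and 19.4% and 18.3% in PPARα-deficient hearts. By genotype the shares of all genes were 0.0321% to 0.85% in each direction. The short lists below are counts to be read beside these shares. Of 13 genes that import carriers into the inner membrane, 1 rose and 4 fell with LPS in Ppara-Flox hearts and 0 rose and 4 fell in PPARα-deficient hearts, and 0 were called by genotype. Timm10, a chaperone that guides carriers between the membranes, fell in both genotypes (log2 fold change -0.50 ± 0.07, adjusted p = 4.12e-05, and -0.43 ± 0.07, adjusted p = 0.000179). Of 16 further genes of these membranes, none of them taken by the symbol rule, 3 rose and 6 fell with LPS in Ppara-Flox hearts. In PPARα-deficient hearts 3 rose and 7 fell, and 0 of the 16 were called by genotype. Tspo, an outer membrane cholesterol-binding protein also abundant in activated macrophages, rose by 1.39 ± 0.13 and 1.52 ± 0.13, and the serine transporter Sfxn1 by 1.05 ± 0.16 and 0.98 ± 0.16. Abcb10, an inner membrane transporter linked to heme synthesis, fell (log2 fold change -0.67 ± 0.08 and -0.60 ± 0.08). Ppargc1a, the coactivator that drives mitochondrial gene expression, fell from 399 ± 90.8 to 28.4 ± 8.79 CPM in Ppara-Flox libraries, and in deficient ones from 426 ± 85.4 to 61.7 ± 37.5 CPM (log2 fold change -3.81 ± 0.38 and -2.79 ± 0.36).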

How the data were processed

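Heart RNA was sequenced in 16 libraries, 4 per group, with a stranded kit per the labels' protocols. Tools named in the submitters' processing notes are fastp 0.23.2, HISAT and StringTie 1.3.3b, with DESeq2 1.30.1, on build GRCm38. Which of these tools made the counts, the annotation and the strand setting are not given in the sources used here. The values, as the authors deposited them, are estimated counts per gene symbol, whole numbers not scaled between samples. Of 55421 lines, 27 with symbols turned into dates were left out and 112 repeated symbols were summed. Among low values 4 occurred 12837 times, against 5293 for 3 and 7268 for 5.

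Genes kept by filterByExpr (18713) were scaled by TMM factors and tested with edgeR 4.0.16 (glmQLFit and glmQLFTest, 4 group means, 12 residual degrees of freedom, R 4.3.3), with Benjamini-Hochberg adjustment over all of them. The interaction subtracts the Ppara-Flox LPS effect from the PPARα-deficient one. Exon lengths and coordinates are from GENCODE vM21 on GRCm38, promoter windows from RefSeq. The members, role lists and marker lists were chosen with earlier results of these data known. Values are given in full for Slc25a3, Slc25a4, Slc25a5, Slc25a20, the uncoupling proteins, members called by genotype, and the 8 highest and 8 lowest called members of each LPS comparison averaging at least 2 on the log2 CPM scale. The counts cover all members, and 1 of them is not reported here by name or plotted. Other members named were chosen after their values were seen.

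Alternatives were RLE factors, DESeq2 1.42.0, no filter, at least 1 CPM in 8 libraries, the groups compared alone, a replicate block, counts divided by 4 and leaving out each library. Added after seeing the data were the 2 number series in the PBS headers as a term, limma-voom (limma 3.58.1), and leaving out 3 libraries together (Ppara-Flox LPS replicate 4, and in PPARα-deficient hearts PBS replicate 4 and LPS replicate 3). The series term takes the series of PBS replicates 1 and 2 as reference. Its LPS effects are therefore against that series and not against the mean of both.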

Additional observations from a re-analysis of the deposited data

Results flagged for a closer look

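Single libraries stood apart from the rest of their group of 4 in 6 of 96 groups over 24 named members (by Dixon's test of the gap to the nearest other library). The 96 include the Ucp1 groups at 0 throughout, where the test cannot be made. Chance gives about 1 in 20 of the groups where it can. Ppara-Flox PBS replicate 1 was far below the others of its group for Slc25a34, at 154 CPM. In PPARα-deficient PBS, replicate 2 was far above the others for Slc25a25, at 13.7 CPM, and replicate 3 for Slc25a36, at 49.8 CPM. In Ppara-Flox LPS, replicate 3 was far above the others for Slc25a42, at 59.2 CPM. In PPARα-deficient LPS, replicate 1 was the high library for Slc25a15, at 7.74 CPM in a group that otherwise spanned little. It was also the 1 library with any Ucp1, at 0.0528 CPM. That flag rests on 4 estimated counts and arises whenever 1 library among zeros is not 0.

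Ppara-Flox PBS replicate 1 was also the lowest library of its group for Slc25a20, Ucp3, Slc25a22 and Slc25a42, among other members. Without it the genotype log2 fold changes under PBS were -1.57 for Slc25a20, -2.62 for Ucp3 and -1.02 for Slc25a22, all still called.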

How the results depend on the processing

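Over 26 alternative settings, 49 results for named members gave 1270 values, of which 1241 kept direction and call. Members lower by genotype numbered 3 under PBS and 4 after LPS in every setting. DESeq2 gave 1 member higher by genotype after LPS (Slc25a35) and 1 lower in the interaction (Slc25a34, -1.06, adjusted p = 0.000655). By edgeR these numbers were 0 and 0. The DESeq2 shares over all genes are not given here, and the cause of the difference was not tested. Leaving out single libraries gave 9 to 11 higher and 16 to 20 lower with LPS in Ppara-Flox hearts, 8 to 10 and 16 to 18 in PPARα-deficient hearts, and 0 for members higher by genotype or called in the interaction.

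Calls were lost for Slc25a4 in Ppara-Flox hearts (7 settings, adjusted p 0.0649 to 0.123, among them no filter and the compared groups alone), Slc25a42 (2), Slc25a44 (3) and, in PPARα-deficient hearts, Slc25a3 (1). The Ucp3 response to LPS in PPARα-deficient hearts was gained in 2. The near-zero interaction of Slc25a20 (-0.00) changed sign to 0.00 with RLE factors, DESeq2 and the PBS number series, 0.01 with the stricter filter, 0.07 without 3 libraries together and up to 0.09 without single libraries (lowest -0.06). That of Slc25a22 ranged from -0.04 to 0.23 without single libraries.

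Replicate numbers did not pair the samples (24 same-number pairs, r from -0.07 to 0.07, and 5 of 16 libraries correlated best with their own number). With a replicate block, 12 members were higher and 19 lower with LPS in Ppara-Flox hearts, 9 and 17 in PPARα-deficient hearts, and 3 and 4 lower by genotype under PBS and after LPS. Counting depth limits the members under 1 CPM.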
